A study of Mus musculus with 6 samples.

Results

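The genes described here encode Golgi enzymes that build and decorate mucin-type sugar chains, and the related sulfotransferases. They were chosen with earlier results of these data known. Membership followed names: every gene whose symbol in the array annotation belongs to the Galnt, B3gnt, B3galt, B4galt, B4galnt, C1galt1, Gcnt, Fut, St3gal, St6gal, St6galnac or Chst families. This gave 80 of the 18193 genes with a probe set, and 56 of these 80 were bright enough to be tested, among 12735 tested genes. The same naming rule matches B4galnt3, Galnt17 and Gcnt4 in the gene table of GRCm38.p6, which had no probe set under the rule and were not analysed here. The rule takes names, not functions, so it also holds enzymes of glycolipids, of N-linked chains and of glycosaminoglycans. Only some of these are pointed out below, so a member without such a remark is not thereby a mucin enzyme.

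Whole bladders of mouse embryos at embryonic day 18.5 had been profiled on 6 expression arrays, 3 from Get1 -/- and 3 from Get1 +/- animals. Get1 (Grhl3) is a DNA-binding factor of the grainyhead-like family, active in surface epithelia, and the series asks which transcripts accompany the bladder defects of the null animals. The controls are heterozygous, so they too carry 1 altered allele, and no wild-type group was analysed here. The sources used here do not give the strain, the kind of allele or any pooling of animals. The p-values measure the spread between these arrays.

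Mucin-type O-glycosylation starts when a polypeptide GalNAc-transferase of the Galnt family attaches N-acetylgalactosamine to serine or threonine. C1galt1 and the Gcnt enzymes build the core structures, B3gnt and B4galt enzymes lengthen the chains, and fucosyl-, sialyl-, GalNAc- and sulfotransferases cap them. Such chains cover the mucins of the gut and of other epithelial surfaces. Fut2, the secretor enzyme, and B4galnt2, which makes the Sda/Cad antigen, are known for capping the sugar chains of gut epithelium.

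Because Get1 encodes a DNA-binding factor, promoter sequence is shown for 2 members: B4galnt2, the member with the largest difference, and Gcnt1, the only member with a match to the relaxed grainyhead-like word. Each runs 5′ to 3′ on the gene's own strand from 250 bases before to 50 bases after an annotated start (RefSeq, GRCm38.p6). The B4galnt2 promoter lies at chr11:95914822-95915121 on the minus strand, and the Gcnt1 promoter, which belongs to 1 of its 3 annotated starts, at chr19:17339456-17339755 on the minus strand. Capitals mark the motif match, which begins at position −114 from that start and fits the relaxed word AACNGGTT on the strand opposite to the one printed.
B4galnt2: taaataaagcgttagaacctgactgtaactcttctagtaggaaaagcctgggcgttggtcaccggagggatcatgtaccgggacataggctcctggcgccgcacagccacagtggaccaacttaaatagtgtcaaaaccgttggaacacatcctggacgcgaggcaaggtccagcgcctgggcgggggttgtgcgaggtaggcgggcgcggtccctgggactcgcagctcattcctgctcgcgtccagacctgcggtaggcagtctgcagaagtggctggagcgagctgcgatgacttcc
Gcnt1: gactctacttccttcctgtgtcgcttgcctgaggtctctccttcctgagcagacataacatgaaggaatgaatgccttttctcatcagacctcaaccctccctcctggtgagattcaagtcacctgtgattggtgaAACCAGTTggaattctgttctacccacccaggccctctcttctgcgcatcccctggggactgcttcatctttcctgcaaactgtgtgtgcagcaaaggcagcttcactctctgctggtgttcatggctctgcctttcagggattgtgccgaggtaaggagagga

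The table held 81 promoters for 61 of the 80 members, and Fut2 was not among them. Both strands were searched for 4 words. The grainyhead-like palindrome AACCGGTT was in 0 of the 81 promoters and in 0.146% of all 32851 promoters of the same length. The relaxed form AACNGGTT, which contains the palindrome, was in 1 (1.23%) against 2.09% of all. The Cdx-type word TTTATNG was in 4 (4.94%, in Fut8, Galnt11, Galnt9 and Gcnt2) against 10.9%, and the Hnf4-type word CAAAGTNCA in 1 (1.23%, in B3gnt3) against 1.41%. The B4galnt2 window held none of the 4 words. A match is a description of the letters in these windows and says nothing about binding.

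Among the 56 tested members, 2 rose in null bladders and 0 fell at an adjusted p under 0.05 (limma, Benjamini-Hochberg over all genes tested). These are 3.57% of the tested members, against 0.448% of all tested genes called higher and 0.0628% called lower. At an unadjusted p under 0.05, 10 members were higher and 2 lower, or 17.9% and 3.57%, against 3.63% and 4.3% of all tested genes. The 3 null arrays lay wholly above the 3 heterozygous arrays for 9 members and wholly below for 2, or 16.1% and 3.57%, against 6.07% and 7.36% of all tested genes. The median difference over tested members was 0.14 on the log2 scale, against −0.03 over all tested genes, and 36 of 56 were above 0, against 45.1% of all tested genes. All differences are null minus heterozygous on the scale log2(signal + 16), which understates the change of dim genes.

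**Figure D1:**
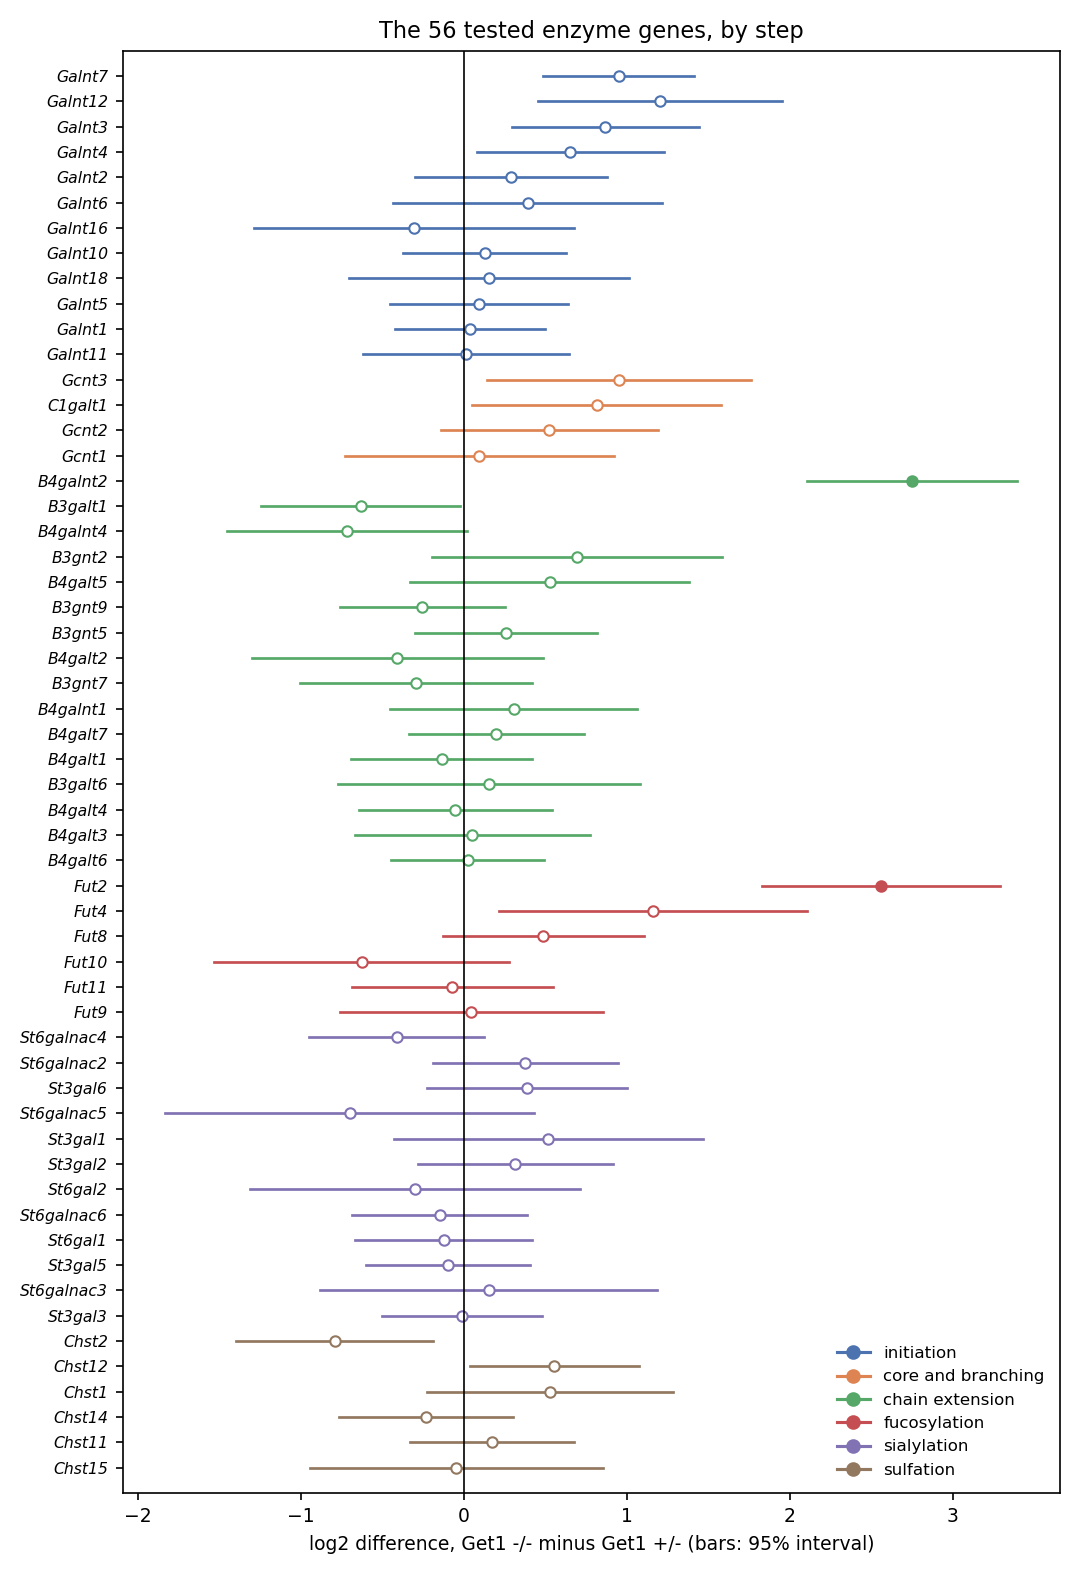
Log2 difference, Get1 -/- minus Get1 +/-, of the 56 tested enzyme genes (points) with the 95% interval of limma's fit (bars), grouped and coloured by step; filled points passed an adjusted p under 0.05. The 2 filled points, B4galnt2 and Fut2, stand at 2.75 and 2.56, and the other 54 genes lie between −0.79 and 1.21.

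Both members that rose cap finished chains. B4galnt2 transfers N-acetylgalactosamine to sialylated galactose. Null arrays 1 to 3 gave signals of 1526, 1466 and 1607, and heterozygous arrays 4 to 6 gave 143.3, 228.1 and 295.9. The null values lay close together and far above all heterozygous values, which themselves were above the limit of the filter on dim genes. On the log2 scale its level rose from 7.84 ± 0.49 to 10.60 ± 0.07 (SD, n = 3 each), a 6.74-fold change (log2 difference 2.75, SE 0.28, adjusted p = 0.0038, limma).

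Fut2 adds alpha-1,2-linked fucose to terminal galactose, the H-type structure of secretions. Null arrays gave signals of 1089, 695.5 and 912.3 and heterozygous arrays 213.9, 118.3 and 98.8. The groups were apart, with the highest heterozygous value on array 4. The log2 level rose from 7.25 ± 0.53 to 9.81 ± 0.32 (SD, n = 3 each), a 5.90-fold change (log2 difference 2.56, SE 0.32, adjusted p = 0.0118, limma).

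The B4galnt2 call held whichever of the 6 arrays was left out, with differences from 2.49 to 2.97. The Fut2 call held without null 2 or heterozygous 4 and missed the threshold without null 1 (adjusted p = 0.0513), null 3 (0.0739), heterozygous 5 (0.0774) or heterozygous 6 (0.0542), while its difference stayed between 2.36 and 2.86. The title of null 1 has 1 as its first number and the other 5 titles have 2, with no meaning stated, so the fit without null 1 is also the one among equally numbered arrays. Both genes have further probe sets that stayed dim: the 3 others of B4galnt2 gave signals from 0.739 to 107.5 with differences of 0.13 to 0.89, and the other of Fut2 gave signals of 11.0 to 34.3 and a difference of −0.27. When the probe sets of each gene were averaged, the differences were 1.13 and 1.14 and neither passed (adjusted p = 0.199 and 0.0668).

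Markers of gut epithelium moved on the same arrays. Of 8 goblet cell markers 7 were tested and all 7 rose, with a median difference of 4.38. Of 12 intestinal epithelial markers 10 were tested and 7 rose, with a median of 3.89. These are 100% and 70% of the tested markers, against 0.448% of all tested genes called higher. Of those that rose, Muc2, Tff3, Fcgbp, Spink4, Zg16, Cdx2, Cdh17, Fabp1 and Guca2a had heterozygous means under the limit of the dim filter. They were tested only through their level on the null arrays. The shares are therefore partly set by the filter and are not read as a result about the markers. Fabp2 (2.53), Slc26a3 (0.70) and Krt20, which went the other way (−0.35), did not pass (adjusted p = 0.576, 0.603 and 0.889, limma). Krt20 was bright in both groups, with signals of 207.9, 547.4 and 495.2 on null and 425.3, 446.7 and 631.7 on heterozygous arrays. The summed signal of the 8 goblet markers was 26220 to 40217 on null and 1156 to 1585 on heterozygous arrays, and that of the 12 intestinal markers was 9155 to 13599 against 842.5 to 1277. The goblet markers Clca1 (871, 795 and 936) and Agr2 (375, 286 and 404) were far above the limit of the dim filter on heterozygous arrays 4 to 6. On the heterozygous arrays 3 to 6 of the 8 goblet markers and 5 to 9 of the 12 intestinal markers lay under the limit of the dim filter, and Cdx2, under it on all 3, had a mean log2 of 4.67, where 4 is the lowest possible level. The part of these cell types in the rise of B4galnt2 and Fut2 was not tested. In RNA of whole bladders a larger share of cells of a type and more RNA per cell cannot be told apart.

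The labelled tissue showed its own markers on all 6 arrays. All 9 urothelial markers were tested and none lay under the limit on any array. Their summed signal was 14299 to 17484 on null and 17639 to 23220 on heterozygous arrays. Of the 9, 1 fell, the uroplakin Upk2, against 0.0628% of all tested genes called lower. At an unadjusted p under 0.05, Upk1a was also lower (−2.36, adjusted p = 0.199) and Foxa1, a factor of urothelial cells, higher (0.69, adjusted p = 0.553), both with separate groups. Of the 6 smooth muscle markers 0 passed the test. At an unadjusted p under 0.05, 2 (33.3%), Des and Cnn1, were higher, against 3.63% of all tested genes. Separate groups with null higher were found for 3 (50%), against 6.07%. All 6 differences were above 0, against 45.1%. The summed signals of the 6 were 140840 to 151943 on null and 112406 to 140593 on heterozygous arrays. Of 5 fibroblast, 4 immune, 4 endothelial and 3 neuronal or glial markers tested 0 passed, with Dpt, Pecam1 and Th lower at an unadjusted p under 0.05. These are 20% of the fibroblast, 25% of the endothelial and 33.3% of the neuronal or glial markers, against 4.3% of all tested genes. The summed signal of the 4 immune markers was 9495 on heterozygous 6, against 2605 and 3037 on heterozygous 4 and 5 and 2508 to 3174 on the null arrays. The probe set of Grhl3 itself, whose place relative to the mutation is not known here, gave signals of 76.6, 21.5 and 119.7 on null and 143.3, 132.9 and 125.6 on heterozygous arrays, and its difference of −0.95 did not pass (adjusted p = 0.655). Heterozygous 6 also had the lowest mean correlation with its own group over the tested members (0.923, the others 0.942 to 0.976, across genes, which are not independent replicates).

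**Figure D2:**
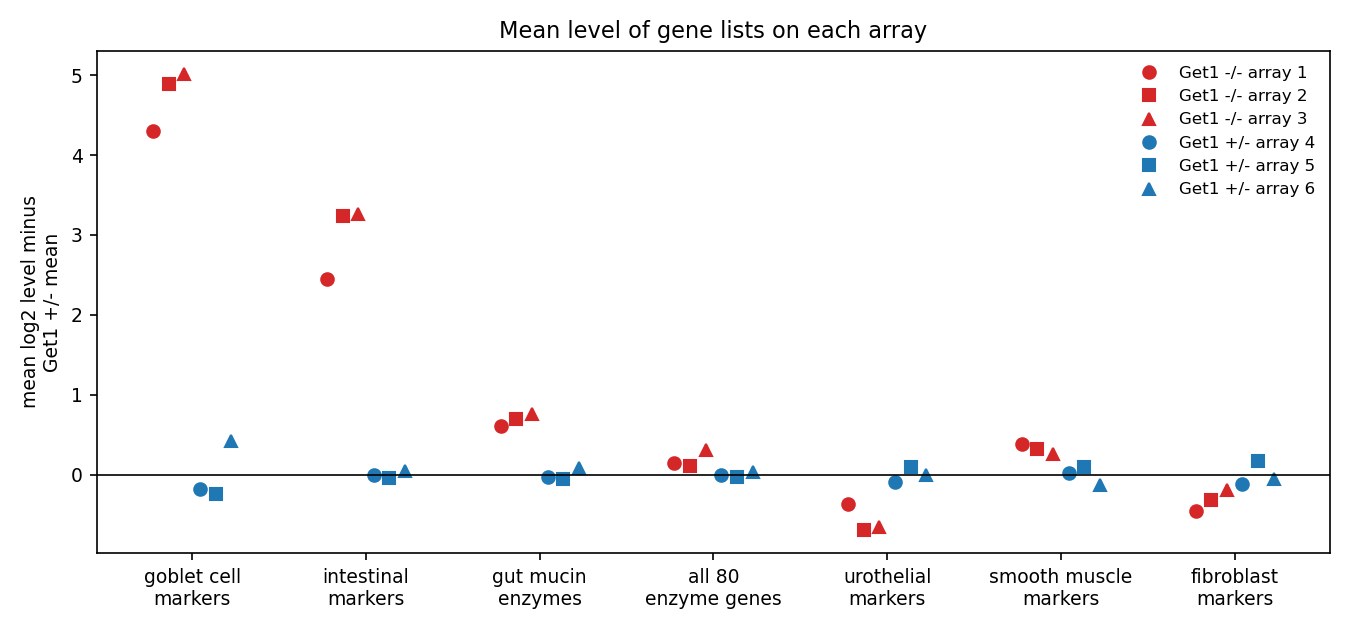
Mean log2 level of each gene list on each array minus the mean of the 3 Get1 +/- arrays; red symbols are Get1 -/- arrays 1 to 3 and blue symbols Get1 +/- arrays 4 to 6. Goblet cell markers lie 4.30 to 5.02 and intestinal markers 2.45 to 3.26 above the Get1 +/- mean on the null arrays, the 16 gut mucin enzymes 0.62 to 0.76 above it, and the mean of the 80 enzyme genes 0.11 to 0.30 above it.

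The first step gave no call but held several genes whose groups were apart. Of 12 tested Galnt genes 0 passed over all genes, 4 (33.3%) were higher at an unadjusted p under 0.05, and these 4 had separate groups, against 3.63% and 6.07% of all tested genes. Galnt7, which prefers peptides that already carry a first sugar, had signals of 741.4, 659.3 and 799.5 on the null and 394.3, 349.5 and 370.1 on the heterozygous arrays. Both groups were tight, and all 3 null values lay well above all 3 heterozygous values. Log2 levels of 9.55 ± 0.14 (null) and 8.60 ± 0.08 (heterozygous; SD, n = 3 each) gave a difference of 0.95 (95% interval 0.48 to 1.41, adjusted p = 0.181, limma). The 2 other probe sets of Galnt7 gave differences of 0.76 and 1.03, also with separate groups.

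Galnt12, a GalNAc-transferase known from the digestive tract, had signals of 278.0, 382.0 and 425.9 on null and 111.0, 115.2 and 236.8 on heterozygous arrays. Heterozygous 6 stood well above the other 2 heterozygous arrays and still under every null array. The difference was 1.21 (95% interval 0.46 to 1.96, adjusted p = 0.326), and 1.53 without heterozygous 6. Galnt3, a transferase of epithelial and secretory tissue, had signals of 239.1, 293.2 and 395.6 against 154.4, 141.1 and 183.4. Its difference was 0.87 (95% interval 0.29 to 1.44, adjusted p = 0.374), and a second tested probe set gave 0.36 with groups that overlapped.

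Galnt4, which like Galnt7 acts on partly glycosylated peptides, had signals of 1132, 1480 and 1427 on null and 1057, 849.4 and 669.0 on heterozygous arrays. Null 1 lay only slightly above heterozygous 4. The difference was 0.65 (95% interval 0.08 to 1.23, adjusted p = 0.556), and it was 0.22 with probe sets averaged, since a dimmer probe set gave −0.41. The widely expressed Galnt1 and Galnt2 had small differences of 0.04 (95% interval −0.43 to 0.50) and 0.29 (−0.30 to 0.88). Signals of Galnt1 were 5488, 5933 and 4940 against 5365, 5050 and 5509, so the groups fully overlapped. The 6 remaining tested Galnt genes (Galnt5, Galnt6, Galnt10, Galnt11, Galnt16 and Galnt18) had differences from −0.31 to 0.39, and Galnt9, Galnt13, Galnt14 and Galnt15 were too dim to be tested.

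**Figure D3:**
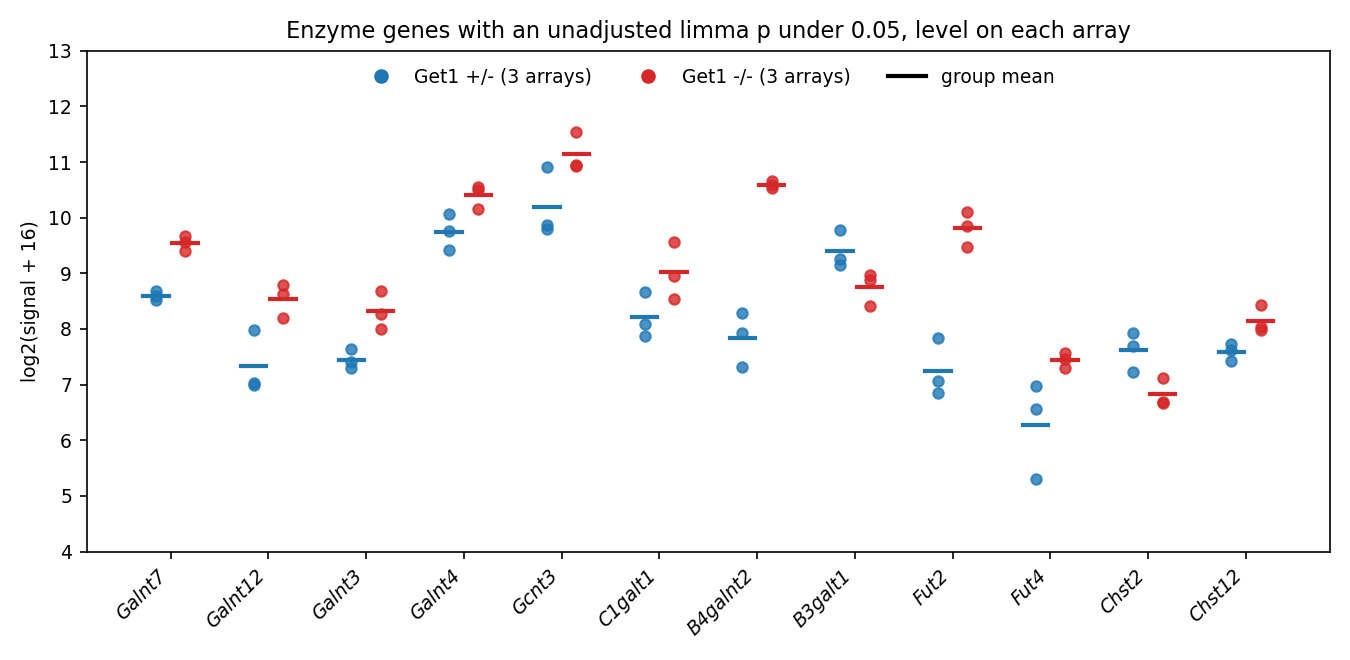
Level of the 12 enzyme genes with an unadjusted limma p under 0.05 on each array, as log2(signal + 16), with blue points for Get1 +/- and red points for Get1 -/- arrays and bars at the group means. The red points lie above the blue points for 9 genes and below them for B3galt1 and Chst2, while C1galt1 overlaps; B4galnt2 and Fut2 are the only genes here with an adjusted p under 0.05.

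Core synthesis and branching had 4 tested members, of which 0 passed over all genes. At an unadjusted p under 0.05, 2 (50%) were higher, against 3.63% of all tested genes. All 4 differences were above 0, against 45.1% of all tested genes. Gcnt3 makes the core 2 and core 4 branches of secreted mucins. It had signals of 2974, 1967 and 1937 on null and 916.0, 877.1 and 1910 on heterozygous arrays. Heterozygous 6 nearly reached null 3, while heterozygous 4 and 5 were far lower. The difference was 0.95 (95% interval 0.14 to 1.76, adjusted p = 0.546), and 1.31 without heterozygous 6.

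C1galt1 makes the core 1 disaccharide on which most mucin chains are built. Its signals were 358.0, 744.4 and 482.1 on null and 219.6, 389.3 and 256.0 on heterozygous arrays, and the groups overlapped, since heterozygous 5 exceeded null 1. The difference was 0.82 (95% interval 0.05 to 1.58, adjusted p = 0.590), and it was 0.54 without null 2 and 0.36 with probe sets averaged. Gcnt2, which adds the I branch to chains of repeated lactosamine, differed by 0.52 (95% interval −0.14 to 1.19), by 0.27 without heterozygous 6 and by 0.15 with its 8 probe sets averaged. Gcnt1, the widely expressed core 2 enzyme whose promoter is printed above, had signals of 5638, 3128 and 2860 against 4547, 3939 and 2308. Its groups overlapped fully, with a difference of 0.10 (95% interval −0.73 to 0.92, adjusted p = 0.981) whose sign turned when its probe sets were averaged (−0.46). Gcnt7 was too dim to be tested.

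Among 16 tested genes of chain extension and GalNAc capping, B4galnt2 was the 1 call (6.25%), against 0.448% of all tested genes called higher. B3galt1, which starts type 1 chains, lay on the lower side with signals of 326.4, 456.5 and 485.6 on null and 595.5, 550.2 and 861.5 on heterozygous arrays. The null values all lay below the heterozygous ones, with a difference of −0.63 (95% interval −1.25 to −0.02, adjusted p = 0.612). Its 3 other tested probe sets gave −0.45, −0.68 and −0.56. B4galnt4, which makes a GalNAc-capped N-acetylglucosamine end, differed by −0.72 (adjusted p = 0.633), with a null mean under the dim limit.

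Galactosyltransferases of most cells gave no call. B4galt1 had signals of 5529, 5747 and 4568 on null and 5546, 4784 and 7279 on heterozygous arrays, with a difference of −0.14 (95% interval −0.69 to 0.42). B4galt7, which builds the linker of glycosaminoglycans and not mucin chains, differed by 0.20 (95% interval −0.34 to 0.74), and its probe set (suffix _x_at) may also hybridise with other transcripts. The intervals of both genes leave out a 2-fold change in either direction, which on the log2 scale is 1, as did the 95% intervals of 25 of the 56 tested members. The remaining 11 tested genes of the step had differences from −0.41 (B4galt2) to 0.69 (B3gnt2). B3gnt6, which makes the core 3 structure of colonic mucin, was not tested, with signals of 1.06 to 16.8 over the 6 arrays. B3gnt3 and B3galt5, both known from gut epithelium, were also too dim, at 1.19 to 32.0 and 10.9 to 41.5, as were B3galt2, B3galt4, B3gnt4 and B3gnt8.

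Of 6 tested fucosyltransferases Fut2 was the 1 that rose (16.7%), against 0.448% of all tested genes called higher. Fut4, which adds the alpha-1,3-linked fucose of Lewis-type structures, had signals of 173.7, 141.4 and 160.1 on null and 23.6, 78.0 and 110.1 on heterozygous arrays. The groups were apart, but the heterozygous values spread widely. The difference was 1.16 (95% interval 0.22 to 2.11, adjusted p = 0.521), and 0.68 without heterozygous 4. Fut8, which fucosylates the core of N-linked chains, differed by 0.49 (95% interval −0.13 to 1.11), and Fut11 by −0.07 (−0.69 to 0.55). Fut9 and Fut10 differed by 0.05 and −0.63, neither past the test. Fut1, the other alpha-1,2-fucosyltransferase of the family, was too dim to be tested, with signals of 1.28 to 32.8, and so was Fut7.

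Of 12 tested sialyltransferases 0 passed, and with the brightest probe set of each 0 had an unadjusted p under 0.05 and 0 had separate groups. A dimmer probe set of St6galnac3, picked after its values were seen, had signals of 31.0, 35.9 and 24.1 on null and 62.1, 87.1 and 66.0 on heterozygous arrays, a difference of −0.92 (adjusted p = 0.515 over probe sets), while the brightest one gave 0.15. The median was −0.06 and the range −0.70 (St6galnac5) to 0.52 (St3gal1). St6galnac2, which sialylates the first GalNAc of mucin chains, had signals of 1034, 754.1 and 1160 on null and 746.7, 637.5 and 855.4 on heterozygous arrays, which overlapped (difference 0.38, 95% interval −0.19 to 0.95, adjusted p = 0.781). St6galnac4, which acts on already sialylated core 1 chains, differed by −0.41 (95% interval −0.95 to 0.12), St3gal2 by 0.32 (−0.28 to 0.91) and St3gal5, the synthase of the glycolipid GM3, by −0.10 (−0.60 to 0.40). St6galnac1, which makes the sialyl-Tn structure of goblet cell mucin, was too dim to be tested at 5.98 to 46.7, and St3gal4 likewise at 1.29 to 29.1.

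Sulfation gave 6 tested members and 0 calls, with 1 member higher and 1 lower at an unadjusted p under 0.05. These are 16.7% each, against 3.63% and 4.3% of all tested genes. Chst2 sulfates N-acetylglucosamine, as on the ligands of selectins, and had signals of 87.3, 85.9 and 122.6 on null and 192.2, 227.1 and 134.3 on heterozygous arrays. All null values lay below all heterozygous values, with null 3 and heterozygous 6 nearest to each other. The difference was −0.79 (95% interval −1.40 to −0.19, adjusted p = 0.471), and −0.32 with probe sets averaged. Chst12, a chondroitin sulfotransferase, had signals of 328.7, 246.8 and 236.3 against 182.3, 155.1 and 196.1 and differed by 0.56 (95% interval 0.04 to 1.08, adjusted p = 0.590). Chst1, of keratan sulfate, and Chst15, of chondroitin sulfate, differed by 0.53 and −0.05, with groups that overlapped.

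The 24 members under the dim filter had no signal above 110.9 on any array, and 2 of them had separate groups, both higher in null. Over all tested genes 6.07% had separate groups with null higher, and the share over untested genes was not computed. The 2 are therefore described only and not read as a result about the dim members. Chst4, which like Chst2 sulfates N-acetylglucosamine, had signals of 40.4, 87.2 and 69.4 on null and 18.4, 13.1 and 23.8 on heterozygous arrays. B3galt4, a glycolipid galactosyltransferase, had signals of 60.8, 63.8 and 53.3 against 40.7, 2.73 and 25.7. These levels lie around the limit of the filter, a signal of 39.7, so the size of the difference is uncertain. Tested probe set by probe set, they differed by 1.21 and 1.09 and did not pass (adjusted p = 0.441 and 0.689 over probe sets). Of the other 7 untested sulfotransferases, Chst9 (2.08 to 110.9) and Chst7 (4.72 to 86.4) reached the highest signals on single arrays.

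A list of 16 members known from gut mucin synthesis described the pattern. It had been written from textbook knowledge with the rise of gut markers in these arrays already known, so its direction is not independent evidence. Of its 11 tested members 2 rose (B4galnt2 and Fut2), 8 were higher at an unadjusted p under 0.05 and 7 had separate groups, with a median difference of 0.87. These counts are 18.2%, 72.7% and 63.6% of the 11, against 0.448%, 3.63% and 6.07% of all tested genes. The 8 were B4galnt2, Fut2, Galnt3, Galnt4, Galnt7, Galnt12, Gcnt3 and C1galt1, and the other 3, B3gnt7, Galnt5 and Gcnt1, had differences of −0.29, 0.09 and 0.10. With 1 array left out, 6 or 7 of the 11 were higher at that unadjusted p, and 5 were with probe sets averaged. Of the 45 tested members outside the list 0 passed over all genes, and the median was 0.05. At an unadjusted p under 0.05, 2 were higher and 2 lower, or 4.44% each, against 3.63% and 4.3% of all tested genes. A list of glycosaminoglycan enzymes among the members had 6 tested genes: B3galt6, B4galt7, Chst11, Chst12, Chst14 and Chst15. It is not complete, since it leaves out Chst1 of keratan sulfate. Of these 6 genes 0 passed and 1 (16.7%) was higher at an unadjusted p under 0.05, against 3.63% of all tested genes. Their differences ran from −0.23 (Chst14) to 0.56 (Chst12).

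Different probe sets of a member did not always give the same direction. The 12 members with an unadjusted p under 0.05 had 21 further probe sets, of which 16 differed in the same direction as the probe set used, and of the 11 bright enough to be tested 9 did so. Galnt12 and Chst12 had a single probe set. Among the 31 tested members with several tested probe sets, those of 19 held both signs.

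**Figure D4:**
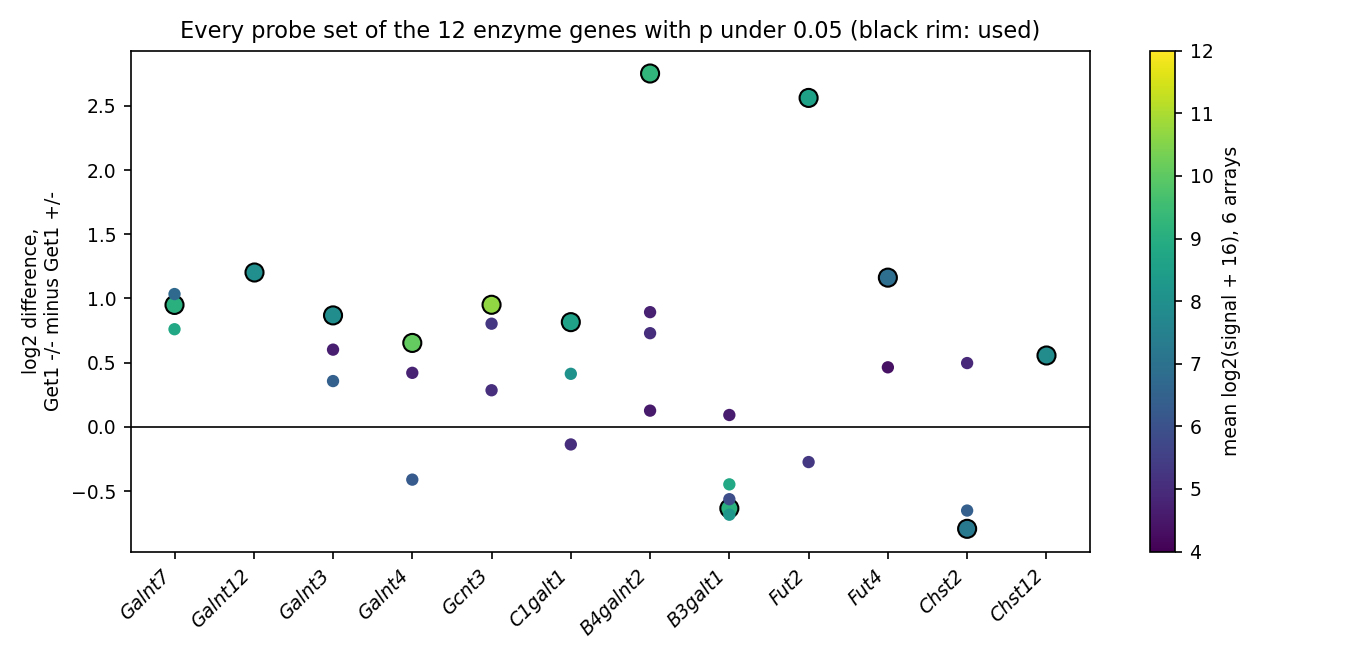
Log2 difference, Get1 -/- minus Get1 +/-, of every probe set of the 12 enzyme genes with an unadjusted limma p under 0.05; colour gives the mean log2(signal + 16) over 6 arrays and a black rim marks the brightest probe set, which was used. The dim probe sets of B4galnt2 and Fut2 lie between −0.27 and 0.89, against 2.75 and 2.56 for the probe sets used.

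The supply side of the pathway was followed in a list of 54 entries outside the naming rule, which held the chaperone of C1galt1, further transferases, enzymes that make sugar nucleotides and their Golgi carriers. Some entries were older and newer symbols of 1 gene. Of these, 46 had a probe set and 38 were tested, and 0 passed over all genes, while 4 were higher and 1 lower at an unadjusted p under 0.05. The median was 0.20. The groups were separate, null higher, for 9 of the 38, or 23.7%, against the 6.07% of all tested genes given above. They were separate, null lower, for 1, or 2.63%, against 7.36%.

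Gmds, the first enzyme of the GDP-fucose pathway that serves Fut2, differed by 1.23 (SE 0.30, adjusted p = 0.28). Of the same pathway, Gfus, the enzyme after Gmds, differed by −0.69 (adjusted p = 0.629) and the salvage kinase Fcsk by −0.58 (adjusted p = 0.858). Fpgt and the carrier Slc35c1, also of this pathway, differed upward by 0.34 and 0.29 (adjusted p = 0.876 and 0.821, limma). The probe sets used for Gmds and Fcsk (suffix _x_at) may also hybridise with other transcripts. Gmds has 2 probe sets and Fcsk 3, and only the brightest of each is given here. Gfpt1, which controls entry into hexosamine synthesis, differed by 0.89 (adjusted p = 0.362), and the sialyltransferase St8sia6 by −0.79 (adjusted p = 0.515). C1galt1c1, the chaperone without which C1galt1 is inactive, and Nans, which makes sialic acid, differed by 0.60 and 0.52 (adjusted p = 0.588 and 0.603). None of the genes named in this paragraph, apart from Fut2, passed the test.

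Of 9 tested mucin backbones that carry such chains 2 (22.2%) rose, against 0.448% of all tested genes called higher. Muc2, the gel-forming mucin of intestinal goblet cells, rose by 4.37 (adjusted p = 0.0085) and the membrane mucin Muc13 by 3.23 (adjusted p = 0.0020). Their heterozygous means of 4.85 and 5.19 lay under the limit of the dim filter (5.80), so both were tested only through their null level. The share of 22.2% is therefore partly set by the filter and is not read as a result about the backbones. The other 7, Muc1, Muc15, Muc16, Emcn, Podxl, Cd34 and Cd164, had differences from −0.34 to 0.01. Muc3, Muc4, Muc5ac, Muc5b, Muc20 and Selplg were too dim to be tested.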

How the data were processed

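Total RNA of 6 bladder samples had been hybridised, in groups and with numbers taken from the sample titles. The values deposited by the authors are linear probe set intensities. The submitters' processing notes name Affymetrix Expression Console 1.1 and PLIER 2.0; the handling of background and of differences between arrays is not stated in them. The protocol in the labels makes sense-strand targets of whole transcripts, but probe sets named like these usually belong to arrays read with antisense targets; which was used could not be settled, and the protocol is the same for all 6 samples. Upper quartiles of the arrays were 335.6 to 372.2. Of 45101 probe sets, 64 controls were left out and 34945 had 1 gene symbol in the platform annotation; 932 had several symbols and named no gene, 2 of them involving a member. Member symbols matched the GRCm38.p6 gene table in all 80 cases. The number of arrays limits the precision.

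Values were taken as log2(value + 16), and each gene was represented by its probe set with the highest mean over 6 arrays. The 30% of genes with the lowest mean (under 5.80, a signal of 39.7) were not tested, and of the 56 tested members 2 had 1 group mean under this limit. Groups were compared with limma 3.58.1 (R 4.3.3; lmFit, eBayes, two-sided, Benjamini-Hochberg over 12735 genes, threshold 0.05), tested on simulated data. Intervals are 95% intervals of that fit. With 3 against 3 arrays the smallest two-sided p of an exact permutation test is 0.1, reached by every member with separate groups. Named members were those past the threshold or at an unadjusted p under 0.05, and per step the 2 with the smallest p and the 2 brightest; Chst4, B3galt4 and the dim or small-difference members named besides were chosen after their values were seen. Members and lists were chosen with earlier results of these data known.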

Additional observations from a re-analysis of the deposited data

How the results depend on the processing

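In 15 alternative fits and a further one at probe set level, added after seeing the data, the count of members that rose was 2 in 11 of 16, 0 with probe sets of a gene averaged, and 1 or 2 with 1 array left out; that of members that fell was 0 in all 16. The median over tested members ranged from 0.04 to 0.20. Over all genes the higher calls numbered 57 (35 with an offset of 1, 38 to 54 with 1 array left out) and the lower calls 8 (5 with an offset of 1 or with a dim filter of 50%, 5 to 9 with 1 array left out). The direction was the same in all 15 fits for 19 of the 26 named members. It turned for Galnt2 (−0.046), Gcnt1 (−0.46) and Chst15 (0.013) with probe sets averaged, and for Gcnt1 (−0.23) and Chst15 (0.044) with array weights. With 1 array left out, values on both sides of 0 were given by Galnt1 (−0.027 to 0.10), Gcnt1 (−0.21 to 0.29), B4galt1 (−0.27 to 0.029), Fut11 (−0.30 to 0.13), St3gal5 (−0.20 to 0.034) and Chst15 (−0.45 to 0.26). None of these 7 members passed the test in any fit, and the cause was not tested. No paired analysis was possible because the replicate numbers 1 to 3 and 4 to 6 are not shared between the groups. Without the dim filter all 80 members were tested, and the 2 that rose were again B4galnt2 and Fut2; signals near or under 39.7 limit the precision of the other dim members.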

Other observations

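Some members gave different pictures at different probe sets, and these were picked after their values were seen. Gcnt1 had a second tested probe set with signals of 67.4, 48.2 and 97.6 on null and 147.9, 104.1 and 241.2 on heterozygous arrays. The groups of this dimmer probe set were apart, with a log2 difference of −1.02 (adjusted p = 0.674 over 31526 probe sets, limma), while the brighter probe set of the same gene differed by 0.10. Fut9, which makes the Lewis x structure, had a probe set at 12.8, 22.4 and 15.3 on null and 51.8, 81.9 and 29.5 on heterozygous arrays, a difference of −1.04 (adjusted p = 0.613 over probe sets). Another Fut9 probe set differed by 0.81 (adjusted p = 0.729 over probe sets) and the brightest by 0.05. None of these differences passed the test.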
